A study of Mus musculus with 6 samples.

Results

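The collagen chain genes of the mouse were taken as the protein-coding genes of the GENCODE M21 annotation (GRCm38) whose symbol has the form Col, a type number, the letter a and a chain number. There were 44 of them among the 21951 protein-coding genes with a transcript in the deposited files, and among 35968 genes of any kind. RNA was measured in MS-5 cells, a mouse stromal line of bone marrow origin, in 3 libraries of cells cultured alone (MS-5 only: MO1, MO2 and MO3) and 3 libraries of cells kept for 24 hr with SKM-1, a human acute myeloid leukaemia (AML) line (co-culture: MC1, MC2 and MC3). The co-cultures were seeded with 4 AML cells for each stromal cell on a confluent stromal layer. All 6 libraries came from cells in the same medium with serum and antibiotics, and cells were washed with PBS. For co-cultures the methods describe separation of the cells and mild trypsin on the stromal layer, meant to take off leukaemic cells still attached. Each group is 1 cell line, and the labels do not say whether replicates came from separate cultures, so that the p-values measure the spread between these libraries, which may be technical. The comparison asks what contact with AML cells did to the stromal cells' transcripts, here to those of the collagen chains. In such bulk RNA, fewer cells with a transcript and less of it per cell cannot be told apart.

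A collagen molecule is made of 3 alpha chains wound into a helix, and each chain gene encodes long stretches in which glycine recurs at a fixed spacing (Gly-X-Y triplets). Fibrillar collagens such as types I, III and V form the fibrils of bone marrow stroma, type IV forms the sheet of basement membranes, type VI forms beaded filaments around cells, and the FACIT collagens lie on the surface of fibrils. In the endoplasmic reticulum, prolines and lysines of the chains are hydroxylated before the helix closes, and lysyl oxidases later cross-link the molecules outside the cell. The classes held 11 fibrillar, 6 basement membrane, 6 beaded filament, 9 FACIT, 3 network-forming, 2 multiplexin, 4 transmembrane and 3 anchoring or other chain genes.

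The repeat that makes these genes collagens was read from the GENCODE M21 coding sequences. In the 4 stretches that follow, 6 triplets of codons are printed for chains on which the results turn, with the glycine codons in capitals, so that the spacing of the capitals shows the Gly-X-Y period. The Col1a1 stretch is codons 168 to 185 (chr11:94939451-94939741, plus strand) and the Col1a2 stretch codons 97 to 114 (chr6:4512406-4515254, plus strand). The Col6a1 stretch is codons 256 to 273 (chr10:76719659-76720996, minus strand) and the Col4a5 stretch codons 1249 to 1266 (chrX:141656825-141658539, plus strand). Introns inside these GRCm38 intervals are left out.
Col1a1: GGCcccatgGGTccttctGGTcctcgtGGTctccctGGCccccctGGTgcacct
Col1a2: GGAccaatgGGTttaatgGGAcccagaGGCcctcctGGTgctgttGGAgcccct
Col6a1: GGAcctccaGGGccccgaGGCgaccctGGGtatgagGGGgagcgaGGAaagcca
Col4a5: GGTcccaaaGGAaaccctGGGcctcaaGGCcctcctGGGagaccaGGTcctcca

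How far this repeat ran without a break differed between chains, also within a class. In the fibrillar chains Col1a1, Col1a2, Col3a1, Col5a1, Col5a2 and Col5a3 the longest run held from 337 (Col5a3) to 344 (Col3a1) triplets. Col24a1 and Col27a1 were the exceptions among the fibrillar chains, with longest runs of 216 and 217 triplets. In the basement membrane chains the repeat was broken often: the 6 chains had 13 to 18 runs of 10 or more triplets, and the longest run held from 39 (Col4a3) to 66 (Col4a2) triplets. Col6a1 and Col6a2 had a longest run of 87 triplets each, against 45 in Col6a3, where only 9.7% of the codons lay in such runs. The 9 FACIT chains ranged widely, from 7.6% of the codons in Col12a1 to 75.9% in Col9a2 and 85.1% in Col22a1, with longest runs of 19 (Col16a1) to 113 triplets. The Col16a1 run was read from a transcript annotated for nonsense-mediated decay, so 19 need not hold for its full chain.

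Depth was 23978881 to 27182453 estimated counts per library in MS-5 only, against 26258451 to 35694987 in co-culture. MO2 and MC3 stood apart from the other 4 libraries across all genes. In these 2 libraries the mitochondrial share of counts was 6.03% and 5.89%, against 10.5% to 13.1% in the others, and the median transcript length weighted by counts was 2646 and 2640 bases, against 1930 to 2021. The deviations of MO2 and MC3 from their group means correlated across genes (r = 0.73). The labels name no batch for them. The methods name a NovaSeq platform in one place and a HiSeq platform in another, and do not say whether these libraries were made or sequenced apart from the rest. Each comparison of the collagen chain genes is therefore also given from a fit with a covariate for these 2 libraries and, where it matters, within each of the 2 kinds of library.

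Of 12 stromal markers, all but Lepr and Nt5e had counts in every library. TPM is a level scaled to all transcripts of a library that accounts for transcript length. The summed level of the 12 was 12210 to 13970 TPM in MS-5 only, against 11410 to 13630 TPM in co-culture. Most of it was S100a4 (6710 to 8260 TPM) and Vim (2800 to 4490 TPM). Nt5e had at most 3 counts in a library and Lepr at most 20. Of the 11 stromal markers tested, 0 passed edgeR's test (adjusted p under 0.1) without a covariate for MO2 and MC3, where 4.38% of all genes did. With it 3 passed, or 27.3%, which is near the 30.2% of all genes: Pdgfra (log2 fold change 0.69) and Pdgfrb (0.28) were higher in co-culture and Acta2 (-0.92) was lower. The part of these in the collagen values was not tested. Of 7 cartilage markers, Acan, Sox9, Matn1, Hapln1 and Chad had at most 2 counts in a library, Comp had 2 to 47 counts with the most in MO2, and Matn3 had 16 to 26 in every library. Among 14 leukocyte markers the summed level was 43.4, 93.1 and 62.1 TPM in MO1, MO2 and MO3, and 159, 689 and 234 TPM in MC1, MC2 and MC3. MC2 held the most in the group. Of these markers 12 were tested and 7 were higher in co-culture without the covariate, or 58.3%, against 4.38% of all genes. Of the 7, Csf1r, Laptm5 and Rac2 were under 10 counts in each MS-5 only library and passed the filter on low counts through co-culture, so that a difference was a condition of their being tested. Plek had 45 to 137 counts in an MS-5 only library. Ptprc, Spi1 and Coro1a had 1 to 17 there and under 10 in MO1. Their co-culture libraries also helped them past the filter, so the 58.3% rests largely on genes that a difference favoured. Without the covariate Mpo and Lcp1 did not pass, with log2 fold changes of 4.74 (adjusted p = 0.121, edgeR) and 1.17 (adjusted p = 0.263, edgeR). Lyz2, Cd68 and Cd53, which did not pass either, had -0.37, -0.34 and -0.11. The untested Itgam had 0, 5 and 1 counts in MO1, MO2 and MO3, against 12, 49 and 29 in MC1, MC2 and MC3. Cd33, also untested, had 7, 14 and 0 counts and then 1, 3 and 11.

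MS-5 cells expressed a broad set of collagen chains. The mean over the 6 libraries was at least 1 TPM for 19 of the 44 genes, of which 7 were at 100 TPM or more and a further 8 at 10 to 100 TPM. It lay between 0.1 and 1 TPM for 11 genes and under 0.1 TPM for 14. No count was recorded in any library for Col6a6 and Col9a1, and 6 genes, these 2 included, had under 3 counts in all libraries together. Fibrillar chains made up 44.8% of the summed collagen TPM and beaded filament chains 34.6%. Basement membrane chains held 9.22%, network-forming chains 6.97% and FACIT chains 2.99%.

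**Figure D1:**
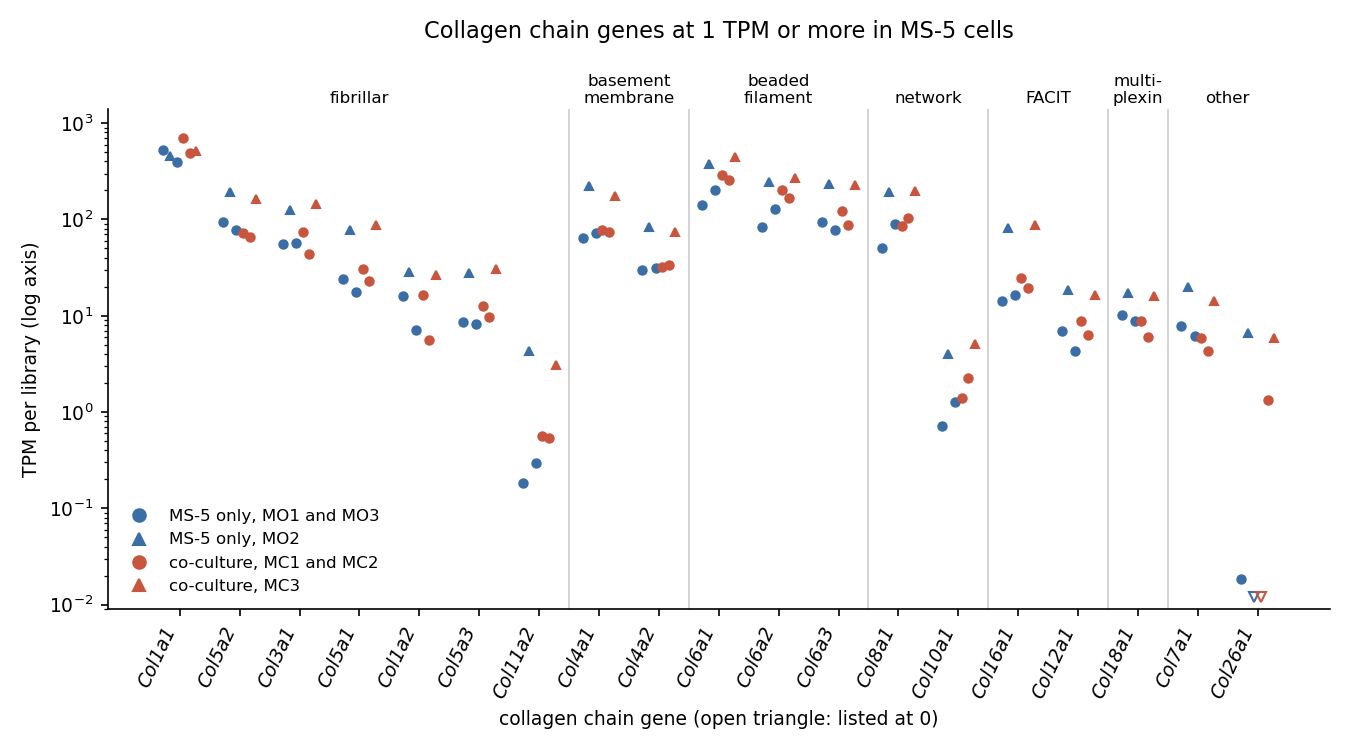
TPM of the 19 collagen chain genes with a mean of at least 1 TPM, on a log axis, with 1 point per library and the genes grouped by class. Triangles (MO2 and MC3) lie above the circles of their group for every gene but Col1a1. Blue points are MS-5 only and red points co-culture.

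Col1a1, the major chain of type I collagen (chr11:94936224-94953042, plus strand), had the highest level of all collagen chain genes. It stood at 531, 453 and 394 TPM in MO1, MO2 and MO3, and at 709, 489 and 514 TPM in MC1, MC2 and MC3, and the groups overlapped. Its partner Col1a2 (chr6:4504814-4541544, plus strand) was at 15.9, 28.8 and 7.09 TPM in MS-5 only and at 16.6, 5.65 and 26.5 TPM in co-culture. Type I collagen is usually made of a pair of Col1a1 chains with a Col1a2 chain, and here the Col1a1 to Col1a2 ratio of TPM was 33.3, 15.7 and 55.6 in MS-5 only, against 42.8, 86.6 and 19.4 in co-culture. The excess of Col1a1 over Col1a2 was thus present in every library and smallest in MO2 and MC3. Between 96.0% and 99.7% of the Col1a2 counts in a library lay on its full-length transcript of 5348 bases.

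The other fibrillar chains at 1 TPM or more belong to types III, V and XI. Col3a1, which forms a collagen of its own and mixes with type I in soft tissue, was at 55.6, 125 and 56.4 TPM in MS-5 only and at 74.2, 43.8 and 146 TPM in co-culture. Col5a2, a chain of the type V collagen that starts fibrils, was at 93.3, 194 and 77.7 TPM in MS-5 only and at 72.5, 65.4 and 164 TPM in co-culture. Col5a1 was at 24.2, 78.2 and 17.7 TPM and then at 30.5, 23.0 and 87.6 TPM. In all 3 of these genes MO2 and MC3 were the highest libraries of their group. Col5a3 ranged from 8.17 to 30.4 TPM over the 6 libraries. Col11a2, a chain of a minor cartilage fibril collagen, was at 4.33 and 3.07 TPM in MO2 and MC3 and at 0.185 to 0.562 TPM in the other libraries. Col2a1 and Col11a1, the other cartilage fibril chains, had at most 7 and 2 counts in a library.

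Of the type IV chains, the common pair was the one expressed. Col4a1 was at 63.9, 221 and 71.9 TPM in MS-5 only and at 77.6, 74.5 and 174 TPM in co-culture, and Col4a2 was at 30.1, 84.5 and 31.5 TPM and then at 32.1, 33.4 and 73.8 TPM. The 4 remaining type IV chains, which replace this pair in kidney, lung and other specialised basement membranes, were at or under 2.17 TPM in every library. Type IV chain genes lie in pairs with their starts facing each other. Col4a1 and Col4a2 overlap by 22 bases at their starts (chr8:11312805-11312826), printed here on the plus strand because these bases are in the first exon of both genes.
Col4a1 and Col4a2: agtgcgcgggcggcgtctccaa

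The type VI chains Col6a1 and Col6a2 came next to Col1a1 in level. Col6a1 was at 141, 378 and 202 TPM in MS-5 only and at 292, 255 and 445 TPM in co-culture. Col6a2 was at 84.0, 246 and 129 TPM and then at 203, 166 and 272 TPM, and Col6a3, the largest chain of the heterotrimer, at 95.2, 234 and 77.0 TPM and then at 121, 88.0 and 230 TPM. MO1 was lowest for Col6a1 and Col6a2, and MC3 highest for both. Between 66.4% and 71.7% of the Col6a3 counts in a library lay on the transcript of 9001 bases and most of the rest on that of 10106 bases. Col6a4 and Col6a5, later additions to the type VI family, had at most 29 and 1 counts in a library.

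The network-forming chain Col8a1, known from vessel walls and the cornea, was at 50.5, 193 and 90.5 TPM in MS-5 only and at 85.6, 103 and 199 TPM in co-culture, while Col8a2 had at most 2 counts in a library. Col10a1, the collagen of hypertrophic cartilage, was at 0.722, 4.00 and 1.26 TPM and then at 1.40, 2.25 and 5.04 TPM. The FACIT chain Col16a1 was at 14.1, 81.5 and 16.3 TPM in MS-5 only and at 24.4, 19.5 and 88.1 TPM in co-culture. In MC3 38.0% of the Col16a1 counts lay on a transcript annotated for nonsense-mediated decay, and in the other libraries 28.7% to 40.3%. Col12a1, a FACIT chain of dense connective tissue, ranged from 4.30 to 18.3 TPM, with 90.4% to 93.6% of counts on its long form of 11511 bases. Col18a1, the multiplexin that holds endostatin, ranged from 6.0 to 17.2 TPM, and Col7a1, the chain of anchoring fibrils, from 4.35 to 19.7 TPM. Col26a1 was at 6.56 and 5.93 TPM in MO2 and MC3, at 1.35 TPM in MC2 and at or under 0.0184 TPM in the other libraries. In MO2, MC2 and MC3 at least 92.8% of its counts lay on a retained-intron transcript of 578 bases, so these values give little information on the coding transcript.

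The 11 genes with a mean between 0.1 and 1 TPM were Col4a3, Col4a5, Col6a4, Col9a2, Col9a3, Col15a1, Col17a1, Col20a1, Col22a1, Col27a1 and Col28a1. Their counts in a library ranged from 0 to 112, the highest in Col20a1. Col17a1, a transmembrane collagen of epithelial attachment, had 17 to 41 counts in a library, and Col22a1 had 9 to 22. Col27a1 had 50 and 73 counts in MO2 and MC3 and 6 to 14 in the others.

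The groups were compared with edgeR's quasi-likelihood test on estimated counts summed per gene, using Benjamini-Hochberg adjustment over all 13221 genes that passed the filter on low counts and an adjusted p under 0.1 as the threshold. The filter left 27 of the 44 collagen chain genes. Col4a3 and Col4a5 were under 10 counts in each of MO1, MO2 and MO3 and passed through their co-culture libraries, so that a difference was a condition of their being tested. Of the 27 genes 1, Col4a5, was higher in co-culture and 0 were lower, or 3.7%, against 4.38% of all genes tested (3.71% higher and 0.666% lower). At an unadjusted p under 0.05 there were 3 collagen chain genes, Col4a3, Col4a5 and Col15a1, of the 27, against 1885 of all 13221 genes tested, which is the larger share. The median log2 fold change was 0.25 over the 27 and -0.02 over all genes tested, and 19 of the 27 were positive. Among the 15 genes at 10 TPM or more, which were all tested, the median was 0.13 and 10 were positive. A count of 1 in 27 is near this background.

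With the covariate for MO2 and MC3, edgeR called 7 of the 27 genes, or 25.9%, against 30.2% of all genes tested. Higher in co-culture were 6 (Col4a3, Col4a5, Col5a3, Col6a1, Col15a1 and Col16a1), or 22.2%, against 13.9% of all genes. Col5a2 was lower, or 3.7%, against 16.4% of all genes. The median log2 fold change was 0.31 over the 27 genes and -0.01 over all genes. In normalised CPM (counts scaled to the library total, not to length), the 3 co-culture libraries lay above the 3 MS-5 only libraries for 5 of the 27 genes (Col4a3, Col4a5, Col6a1, Col6a2 and Col15a1), where 11.6% of all genes did so. They lay below them for 0 of the 27, where 9.6% of all genes did so. Col4a3 and Col4a5 count among the 6 and the 5, though a difference was a condition of their being tested. With 3 libraries in each group, the smallest two-sided p that exact permutation of 1 gene's values allows is 0.1.

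**Figure D2:**
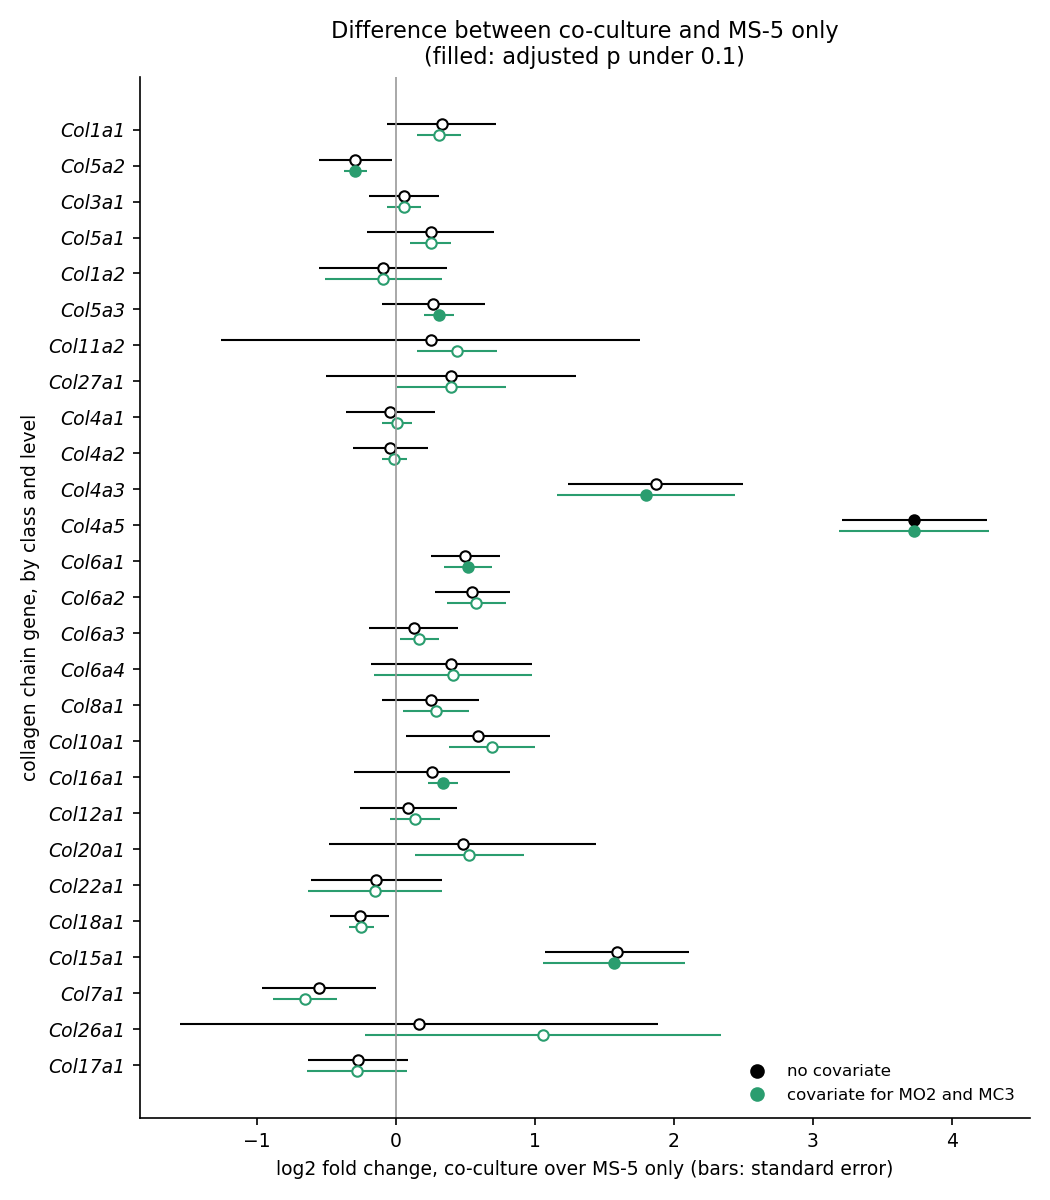
Log2 fold change of the 27 tested collagen chain genes, co-culture over MS-5 only, with the standard error as bars, from the edgeR fit without a covariate (black) and with the covariate for both outlying libraries, MO2 and MC3 (green). Filled points have an adjusted p under 0.1: Col4a5 in both fits, and 6 further genes only with the covariate, where the bars of most genes at higher level are shorter.

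The fibrillar chains that build type I and III collagen did not pass the test in either fit. For Col1a1 the normalised level was 2210 ± 652 CPM (SD, n = 3) in MS-5 only, against 2770 ± 1020 CPM (SD, n = 3) in co-culture. The log2 fold change was 0.33 ± 0.39 (SE, adjusted p = 0.828, edgeR) without and 0.31 ± 0.16 (adjusted p = 0.223) with the covariate. Without the covariate it was 0.02 when MC1 was left out and 0.58 when MO1 was. Col1a2 had a log2 fold change of -0.09 ± 0.46 (SE, adjusted p = 0.98, edgeR) and its direction changed on leaving out single libraries (-0.39 to 0.24). For Col3a1 it was 0.06 ± 0.25 (SE, adjusted p = 0.978, edgeR), and 0.06 ± 0.12 with the covariate.

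Of the 3 type V chains, none passed the test without the covariate, and Col5a2 and Col5a3 passed with it. Col5a2 was at 565, 747 and 483 CPM in MS-5 only and at 435, 412 and 625 CPM in co-culture, lower in co-culture in MC1 and MC2 against MO1 and MO3 and in MC3 against MO2. Its log2 fold change was -0.29 ± 0.26 (SE, adjusted p = 0.735, edgeR) without the covariate, and it fell by 0.29 ± 0.08 on the log2 scale (SE, adjusted p = 0.0585, edgeR) with it. Without the covariate the value was -0.10 when MO2 was left out and -0.50 when MC3 was. Col5a1 had a log2 fold change of 0.25 ± 0.46 (SE, adjusted p = 0.914, edgeR) without and 0.25 ± 0.15 (adjusted p = 0.267) with the covariate, and without it ranged from -0.21 to 0.72 on leaving out single libraries. Col5a3, a chain found in part of the type V collagen, rose by 0.31 ± 0.11 (SE, adjusted p = 0.0852, edgeR) with the covariate, but was at 0.27 ± 0.37 (adjusted p = 0.859) without it, with a range of -0.03 to 0.71 on leaving out single libraries. The Col5a1 to Col5a2 ratio of TPM was 0.26, 0.404 and 0.227 in MS-5 only, against 0.421, 0.352 and 0.533 in co-culture, and the groups overlapped through MO2. Within MO1, MO3, MC1 and MC2 the log2 of this ratio was higher in co-culture by 0.66, and in MC3 it was 0.40 above MO2. Over all 6 libraries the exact two-sided permutation p was 0.2, where 0.1 is the smallest that 3 against 3 allows.

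Type VI chains Col6a1 and Col6a2 were the chains of high level whose groups did not overlap in CPM. In TPM the groups of both overlapped through MO2, which at 378 and 246 TPM lay above MC1 and MC2. Col6a1 (chr10:76708792-76726168, minus strand) was at 519, 896 and 762 CPM in MS-5 only and at 1070, 976 and 1050 CPM in co-culture. The log2 fold change was 0.50 ± 0.25 (SE, adjusted p = 0.44, edgeR) without and 0.52 ± 0.17 (adjusted p = 0.0782) with the covariate. Col6a2 (chr10:76595762-76623630, minus strand) was at 306, 582 and 479 CPM and then at 735, 634 and 638 CPM, and its log2 fold change was 0.55 ± 0.27 (SE, adjusted p = 0.424, edgeR) without and 0.58 ± 0.21 (adjusted p = 0.105) with the covariate. Within MO1, MO3, MC1 and MC2 the difference in mean log2(CPM + 0.5) was 0.70 for Col6a1 and 0.83 for Col6a2, and between MC3 and MO2, a single pair, it was 0.22 and 0.13. Leaving out MO1, the lowest library for both, gave log2 fold changes of 0.34 and 0.36 without the covariate. Col6a3, on another chromosome, was at 0.13 ± 0.32 without the covariate (SE, adjusted p = 0.944, edgeR).

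Col6a1 and Col6a2 are neighbours on the minus strand of chromosome 10, with 85161 bases between them. Bases before the start of each gene are printed, as both genes had similar values, from the RefSeq promoter table (GRCm38.p6), 5′ to 3′ on the gene's strand, at chr10:76726169-76726294 for Col6a1 and chr10:76623631-76623880 for Col6a2. The RefSeq start of Col6a1 lies 124 bases inside the GENCODE gene, and only the 126 bases before both starts are shown, against 250 for Col6a2. Capitals mark the letters of a GC box, GGGCGG on either strand. The Col6a2 stretch has it once, on the opposite strand, and the Col6a1 stretch has none.
Col6a1: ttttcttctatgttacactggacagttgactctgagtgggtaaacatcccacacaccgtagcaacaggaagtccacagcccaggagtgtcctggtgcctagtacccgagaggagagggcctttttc
Col6a2: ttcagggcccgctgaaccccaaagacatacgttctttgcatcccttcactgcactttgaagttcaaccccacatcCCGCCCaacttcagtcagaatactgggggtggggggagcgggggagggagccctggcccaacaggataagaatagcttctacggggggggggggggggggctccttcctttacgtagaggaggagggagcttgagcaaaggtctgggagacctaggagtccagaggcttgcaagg

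The common type IV chains differed between the groups by less than the spread between libraries. Col4a1 was at 458 ± 184 CPM (SD, n = 3) in MS-5 only, against 445 ± 97.5 CPM (SD, n = 3) in co-culture, with a log2 fold change of -0.04 ± 0.32 (SE, adjusted p = 0.988, edgeR) without and 0.01 ± 0.11 (adjusted p = 0.975) with the covariate. Col4a2 was at 228 ± 76.4 CPM and 222 ± 45.1 CPM (SD, n = 3 each), with a log2 fold change of -0.04 ± 0.27 (SE, adjusted p = 0.988, edgeR) without and -0.01 ± 0.09 with the covariate.

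Col4a5, a type IV chain of glomerular and other basement membranes, was the chain called in both fits, from few counts. It had 1, 2 and 2 counts in MO1, MO2 and MO3 and 22, 23 and 37 in MC1, MC2 and MC3. In counts and in CPM the groups lay far apart. In CPM it was at 0.0647 ± 0.0254 (SD, n = 3) in MS-5 only and at 0.901 ± 0.208 (SD, n = 3) in co-culture. The log2 fold change was 3.73 ± 0.52 (SE, adjusted p = 0.0734, edgeR) without and 3.73 ± 0.54 (adjusted p = 0.0143) with the covariate, and 3.58 within MO1, MO3, MC1 and MC2 (adjusted p = 0.0792, edgeR). Nearly all counts of MC1 were assigned to the transcript of 6536 bases and those of MC3 to that of 6285 bases, and the values here sum over the gene's transcripts. In TPM it was at 0.00695, 0.0984 and 0.0154 in MS-5 only, against 0.113, 0.237 and 0.294 in co-culture. The groups did not overlap in TPM, but MO2 lay near MC1. The call was lost with the effective length offset, at 3.15 ± 0.81 (SE, adjusted p = 0.13, edgeR), and with limma on log2(TPM + 0.5), at 0.40 (adjusted p = 0.653). With 0.1 or 1 added, limma gave 1.18 (adjusted p = 0.415) and 0.22 (adjusted p = 0.771). Every TPM value of Col4a5 was under 0.5, so the size of the limma estimate depended on the value added.

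The start of Col4a5 (chrX:141475385-141689234, plus strand) lies 1308 bases from that of Col4a6, which runs the other way. Col4a6 had 0, 4 and 2 counts in MS-5 only, against 0, 2 and 3 in co-culture, too few to be tested. The 216 bases before the start of Col4a5 in both GENCODE and RefSeq (chrX:141475169-141475384, GRCm38.p6, plus strand) are printed because it is the chain that passed the test, with the letters of a CCAAT box in capitals.
Col4a5: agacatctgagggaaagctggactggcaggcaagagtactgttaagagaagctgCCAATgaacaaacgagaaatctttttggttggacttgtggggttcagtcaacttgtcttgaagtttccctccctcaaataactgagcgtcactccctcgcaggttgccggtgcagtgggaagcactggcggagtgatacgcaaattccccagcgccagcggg

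The RefSeq table held 38 promoter windows for 35 of the collagen chain genes, each of 250 bases before and 50 bases after a start, among 32851 windows of the mouse. Searched on both strands, GGGCGG was found in 23 of the 38 (60.5%, against 35.7% of all windows), and CCAAT in 13 (34.2%, against 37.4%). The hypoxia response letters ACGTG were in 5 (13.2%, against 19.6%), the core GCGTG in 10 (26.3%, against 32.4%) and TATAAA in 5 (13.2%, against 13.6%). These are counts of letters and not of binding sites.

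Among other chains of low count, Col4a3 and Col15a1 passed the test with the covariate and not without it. Col4a3, another chain of specialised basement membranes, had 6, 6 and 2 counts in MS-5 only, against 15, 27 and 14 in co-culture. The log2 fold change was 1.87 ± 0.63 (SE, adjusted p = 0.234, edgeR) without and 1.80 ± 0.64 (adjusted p = 0.0989) with the covariate. Of its counts 11 in MC1 and 22 in MC2 lay on a transcript of 627 bases, against 3 in MC3. Col4a4, whose start is 71 bases from that of Col4a3, had 5, 12 and 6 counts and then 2, 5 and 16, and was not tested. Col15a1, a multiplexin of basement membrane zones, had 16, 13 and 4 counts and then 41, 23 and 53, and a log2 fold change of 1.59 ± 0.52 (SE, adjusted p = 0.222, edgeR) without and 1.57 ± 0.51 (adjusted p = 0.0788) with the covariate. In TPM its groups overlapped, at 0.705, 0.336 and 0.227 in MS-5 only, against 0.483, 1.02 and 0.619 in co-culture. The estimate was 0.72 ± 0.67 (SE, adjusted p = 0.78, edgeR) with the effective length offset and 0.40 (adjusted p = 0.953) with limma on log2(TPM + 0.5). Col16a1 was at 0.26 ± 0.56 (SE, adjusted p = 0.937, edgeR) without and 0.34 ± 0.11 (adjusted p = 0.0858) with the covariate, at a far higher level of 60.0 to 213 CPM.

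Col9a2, a chain of the cartilage FACIT collagen IX, was listed at 0 counts in all MS-5 only libraries with 7, 30 and 18 counts in the co-culture libraries MC1, MC2 and MC3. The gene did not pass the filter and was not tested. Against a floor of 3 counts over the MS-5 only group its co-culture level was at least 15.8-fold higher, a bound that covers counting error only and holds for the gene, not for its coding transcript. Of the counts in MC1, MC2 and MC3, 82.0%, 31.4% and 37.1% lay on a non-coding processed transcript of 752 bases, and the coding transcript of 2924 bases had 1, 18 and 11. Its partners Col9a1 (0 counts in every library) and Col9a3 (0, 24 and 3 counts, then 8, 4 and 24) did not share this pattern. Col28a1 had 3, 2 and 2 counts and then 16, 5 and 6. Col14a1, a FACIT chain, was at 4, 3 and 5 counts in MS-5 only, against 0, 2 and 0 in co-culture, the untested chain whose groups lay apart in the other direction.

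**Figure D3:**
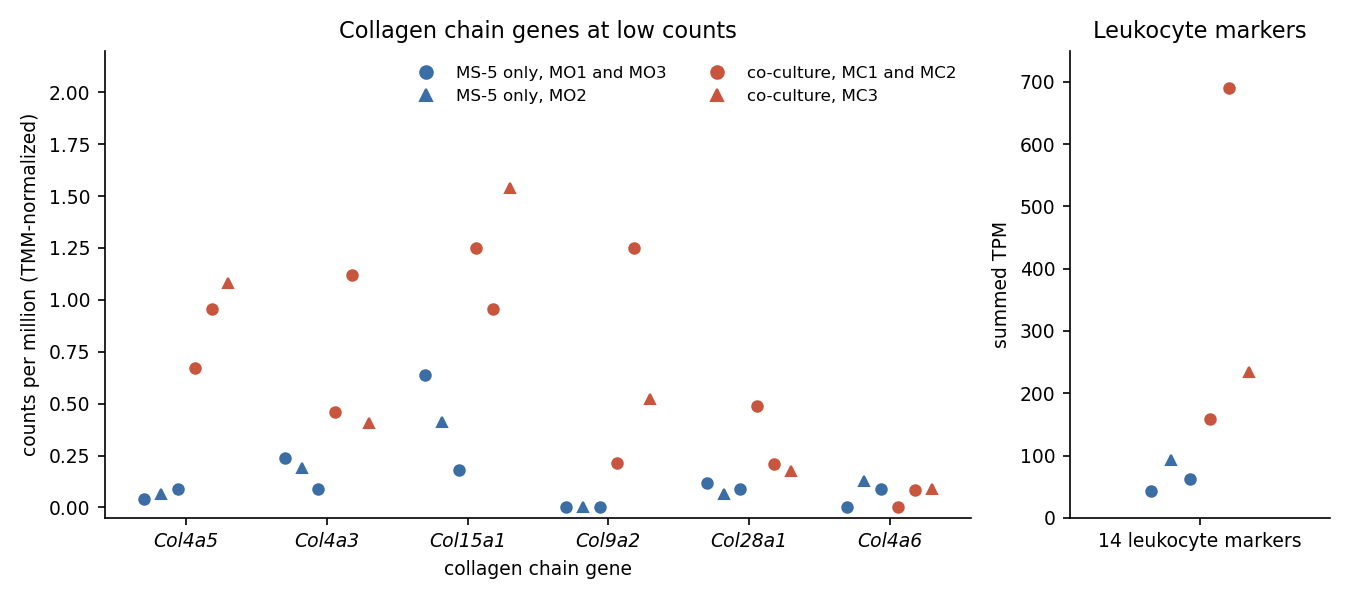
Left, normalised CPM of 6 collagen chain genes of low count in each library. Right, summed TPM of 14 leukocyte markers. Col4a3, Col9a2 and the leukocyte markers are highest in MC2 (1.12 CPM, 1.25 CPM and 689 TPM), while Col4a5 and Col15a1 are highest in MC3 (1.08 and 1.54 CPM).

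For some of these chains the rise was uneven over the co-culture libraries in the way it was for part of the leukocyte markers. The rise over the MS-5 only mean was, in MC2, between 3.56 and 7.31 times the mean rise in MC1 and MC3 for the 7 leukocyte markers that passed the test, in CPM. Among markers not called without the covariate, it was 7.28 times for Mpo, 6.76 for Lcp1 and 3.66 for Itgam. Lyz2, Cd68, Cd53 and Cd33 had a lower mean in co-culture than in MS-5 only. The same ratio was 3.66 for Col4a3 and 3.38 for Col9a2. It was 1.10 for Col4a5, 0.552 for Col15a1, 0.760 for Col6a1 and 0.772 for Col6a2. The part of leukocyte RNA in the values of Col4a3 and Col9a2 was not tested. Without MC2 the log2 fold change of Col4a5 was 3.68 (adjusted p = 0.0849, edgeR). That of Col4a3 was 1.28 without MC2 (adjusted p = 0.646, edgeR), against 1.87 with all 6 libraries.

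The split of the libraries was larger than the difference between groups for most chains at high level. In log2(TPM + 0.5), MO2 lay above the mean of MO1 and MO3, and MC3 above the mean of MC1 and MC2, by more than 0.5 for the same 18 of the 19 genes at 1 TPM or more. The median difference over the 19 was 1.45 in MS-5 only, against 1.25 in co-culture, against 0.58 and 0.55 over 11858 genes at that level. For genes over 6 kb it was 1.14 and 0.97, and for those of 4 to 6 kb 0.88 and 0.82, so the median of the collagen chain genes lay above that of each length class. Col16a1 (2.39 and 1.99) and Col5a1 (1.89 and 1.71) were among those with the widest split. Col1a1 was the exception at -0.015 and -0.20, with a main transcript of 5930 bases. Across the 19 genes the differences in the 2 groups correlated (Pearson r = 0.90, Spearman rho = 0.67), as a description, since all genes share the same libraries.

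**Figure D4:**
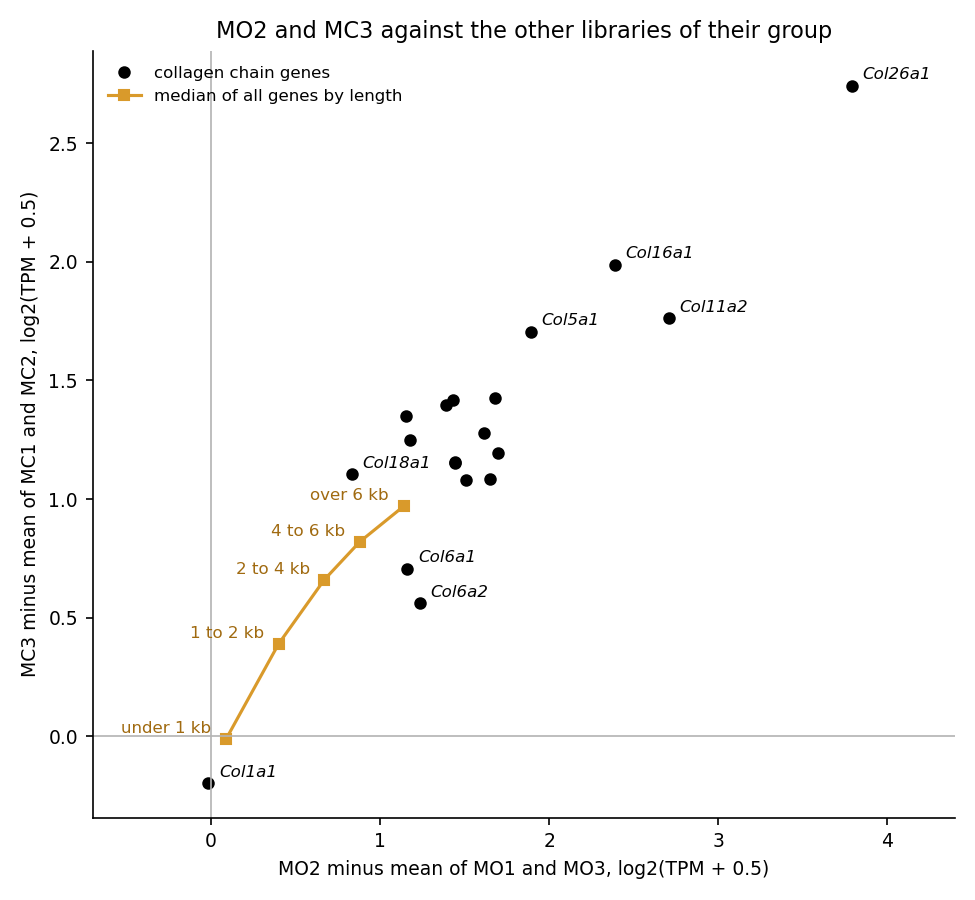
For the 19 collagen chain genes at 1 TPM or more, the difference of MO2 from MO1 and MO3 (x axis) against that of MC3 from MC1 and MC2 (y axis), in log2(TPM + 0.5), with the medians of all genes by length class as squares. Col1a1 lies at -0.015 and -0.20, while the other collagen chain genes lie above 0.5 on both axes and most of them beyond the medians of the longest class, 1.14 and 0.97.

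The summed collagen TPM showed the same split. It was 1235, 2421 and 1202 TPM in MO1, MO2 and MO3, and 1780, 1403 and 2520 TPM in MC1, MC2 and MC3. The ratio of the group means, co-culture over MS-5 only, was 1.17, and it was 1.31 within MO1, MO3, MC1 and MC2 and 1.04 between MC3 and MO2. By contrast MO2 was 1.99 times the mean of MO1 and MO3. Leaving out MC3 turned the ratio of groups to 0.983. The class with the highest ratio among those above 1 TPM in every library was the beaded filament class (1.31), and the lowest was that of the anchoring and other chains (0.811). Retained-intron transcripts took 0.827% and 0.776% of the collagen counts in MO2 and MC3 and 0.253% to 0.317% in the others, and over all genes 3.39% and 3.42%, against 1.49% to 1.64%. The part of these differences in the collagen values was not tested.

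Chains of the same molecule differed in how closely they moved together. For 5 ratios of TPM compared between groups, exact two-sided permutation p-values ran from 0.2 to 1 (adjusted, 0.667 to 1). With 0.1 as the smallest value possible no ratio could have passed the threshold, so these p-values do not show that the ratios were equal. The Col4a1 to Col4a2 ratio was 2.12, 2.62 and 2.28 in MS-5 only, against 2.42, 2.23 and 2.37 in co-culture. The Col6a1 to Col6a2 ratio was 1.68, 1.54 and 1.57 and then 1.44, 1.53 and 1.64. Both pairs thus kept a narrow ratio even in MO2 and MC3. The Col6a1 to Col6a3 ratio was wider, at 1.48, 1.62 and 2.62 and then 2.42, 2.89 and 1.94, and the Col1a1 to Col1a2 ratio spread the most.

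**Figure D5:**
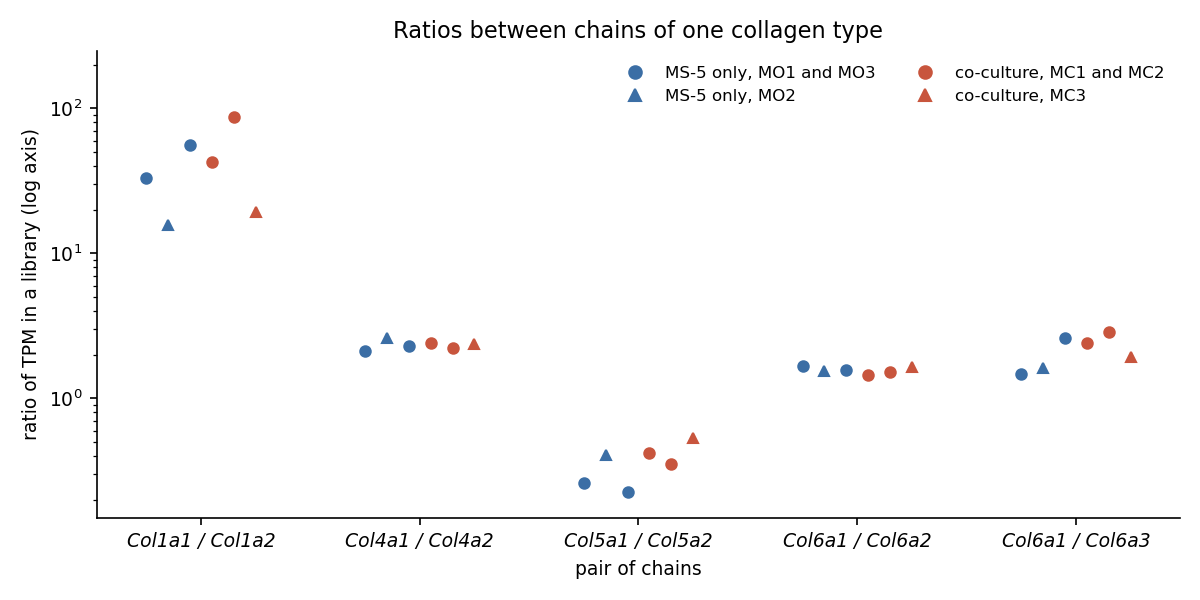
Ratio of TPM between pairs of collagen chains in each library, on a log axis. The Col4a1 to Col4a2 ratios lie between 2.12 and 2.62 and the Col6a1 to Col6a2 ratios between 1.44 and 1.68, while the Col1a1 to Col1a2 ratios lie between 15.7 (MO2) and 86.6 (MC2).

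The genes that modify, export, process and cross-link collagen were compared from lists of 74 genes, of which 54 were tested. EdgeR without the covariate called 4 of them higher and 0 lower, or 7.41%, against 4.38% of all genes tested. With the covariate it called 13 higher and 3 lower, or 29.6%, which is near the 30.2% of all genes. Among the prolyl and lysyl hydroxylases 3 of 12 passed without the covariate (all genes, 4.38%) and 7 of 12 with it (all genes, 30.2%), all of them higher. The median log2 fold change of these 12 was 0.49, against -0.02 over all genes tested.

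P4ha1, a catalytic subunit of the prolyl 4-hydroxylase that stabilises the collagen helix, was at 78.6, 111 and 84.3 TPM in MS-5 only and at 233, 183 and 270 TPM in co-culture. All co-culture libraries were above all MS-5 only libraries, in both kinds of library. It rose by 1.33 ± 0.18 on the log2 scale (SE, adjusted p = 0.0734, edgeR). P4ha2, the alternative catalytic subunit, was at 54.8, 61.7 and 43.5 TPM and then at 98.0, 70.8 and 120 TPM, with a log2 fold change of 0.80 ± 0.20 (SE, adjusted p = 0.114, edgeR) without and 0.81 ± 0.12 (adjusted p = 0.0151) with the covariate. P3h3, a prolyl 3-hydroxylase, was at 0.62 ± 0.30 (SE, adjusted p = 0.431, edgeR) without and 0.66 ± 0.14 (adjusted p = 0.0257) with the covariate.

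The lysyl hydroxylase Plod1 was at 67.5, 89.8 and 66.7 TPM in MS-5 only and at 125, 99.2 and 146 TPM in co-culture, and rose by 0.73 ± 0.17 on the log2 scale (SE, adjusted p = 0.0985, edgeR). Plod2, which hydroxylates the telopeptide lysines used in cross-links, was at 20.4, 47.3 and 22.5 TPM and then at 43.3, 34.8 and 82.5 TPM, and rose by 0.80 ± 0.18 (SE, adjusted p = 0.088, edgeR). Its TPM groups overlapped through MO2 but its CPM groups did not. Plod3 had a log2 fold change of 0.09 ± 0.22 (SE, adjusted p = 0.942, edgeR). Of the 5 lysyl oxidases, 1 passed the test in each fit, or 20.0%, against 4.38% of all genes without and 30.2% with the covariate. Loxl1, the one called and known for elastic fibres, was at 19.5, 40.2 and 26.1 TPM and then at 37.2, 40.9 and 60.1 TPM and rose by 0.71 ± 0.16 (SE, adjusted p = 0.0933, edgeR). Lox itself was at 176, 367 and 256 TPM and then at 275, 289 and 422 TPM, with a log2 fold change of 0.33 ± 0.23 (SE, adjusted p = 0.624, edgeR). These calls depended on the setting. Over the alternatives that kept all 6 libraries, the adjusted p ran from 0.000724 to 0.383 for Plod1, from 0.00186 to 0.714 for Plod2 and from 0.0019 to 0.568 for Loxl1, lowest with DESeq2. For all of these 3 genes the call was lost with limma on log2 TPM, with the effective length offset and with the replicate block, and for Plod1 and Loxl1 also with the filter of 5 counts in 3 libraries and without a filter. Plod1 further lost it with the length trend offset (adjusted p = 0.106, edgeR), and Plod2 and Loxl1 with library size alone. For P4ha1, Plod1, Plod2 and Loxl1 the MC2 rise was 0.921, 0.905, 0.586 and 1.37 times the mean rise in MC1 and MC3, against 3.56 to 7.31 for the 7 leukocyte markers that passed the test. The part of leukocyte RNA in the values of these 4 genes was not tested.

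The genes of glycosylation, folding and export showed 0 calls of 13 tested without the covariate (all genes, 4.38%) and 1, the lower Fkbp10 (-0.36 ± 0.13, SE), with it, or 7.69%, against 30.2% of all genes. Serpinh1, the collagen chaperone, was at 503 to 657 TPM in all libraries, with a log2 fold change of 0.02 ± 0.25. Of the procollagen processing genes Bmp1, the C-proteinase, was at 0.48 ± 0.43 (SE, adjusted p = 0.735, edgeR) without and 0.56 ± 0.14 (adjusted p = 0.0384) with the covariate, and without it ranged from 0.15 (MC3 left out) to 1.03 (MO2 left out). Pcolce2 fell by 0.43 ± 0.11 on the log2 scale with the covariate (SE, adjusted p = 0.0384, edgeR). Pcolce2 and Fkbp10, like the genes here with a level only, were picked after their values were seen.

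Among fibril partners, Bgn was at 1160 to 1610 TPM, whereas Dcn and Lum, other small leucine-rich proteoglycans of fibrils, were at most at 0.106 and 0.0208 TPM, and Kera was at 0. Thbs2, a matricellular protein that affects fibril form, was at 866, 2130 and 1090 TPM in MS-5 only and at 1750, 1650 and 2930 TPM in co-culture, with a log2 fold change of 0.66 ± 0.36 (SE, adjusted p = 0.499, edgeR) without and 0.68 ± 0.13 (adjusted p = 0.0212) with the covariate. Of the receptors, Itga2, Itga10 and Itga11 were under 0.5 TPM in every library and Ddr2 was at 64.9 to 130 TPM. Adgrg1, a receptor that binds type III collagen, was at 0.58 ± 0.21 (SE, adjusted p = 0.265, edgeR) without and 0.57 ± 0.11 (adjusted p = 0.021) with the covariate. Of the 7 degradation genes tested, Ctsk, a collagen-cleaving cathepsin, was at 6.38, 15.2 and 9.91 TPM and then at 4.80, 5.23 and 7.40 TPM, and its log2 fold change was -0.82 ± 0.23 (SE, adjusted p = 0.148, edgeR) without and -0.81 ± 0.21 (adjusted p = 0.041) with the covariate. No other degradation gene passed the test in either fit, so that 0 of 7 were called without the covariate (all genes, 4.38%) and 14.3% with it (all genes, 30.2%). Of the 7 partners and the 5 receptors tested, 0 passed without the covariate (all genes, 4.38%). With it 2 of each were higher, or 28.6% and 40.0%, where 13.9% of all genes were higher and 30.2% passed in either direction.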

How the data were processed

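Reads were quantified by the authors with Kallisto against mouse transcripts (GRCm38 per the methods and mm10 per the submitters' processing notes, which also list kallisto 0.43.0, sleuth 0.30.0 and FastQC 0.11.7). For each of 118489 transcripts the authors deposited an estimated count, not normalized between libraries, and a TPM value, the estimated count per effective length brought to a common sum per library. Lengths and effective lengths in bases, as deposited, served for length classes and a length correction. Identifiers of 116728 transcripts matched GENCODE M21 (GRCm38) and 1761 were left out. An index of mouse transcripts can count a human read only where it resembles a mouse transcript, and no filter on species is described for these files. Isoforms of a gene were summed, and counts rounded, before edgeR 4.0.16 (TMM, filterByExpr, quasi-likelihood test, no covariate, R 4.3.3, Benjamini-Hochberg adjustment over all genes tested, threshold 0.1). Standard errors are the log2 fold change over the square root of F. Depth ran from 23978881 to 35694987 estimated counts, so that chains under 1 TPM were measured from few counts. The covariate for MO2 and MC3 comes from the PCA plot of the study. The scripts were tested on simulated data.

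Alternatives tried were library size alone, DESeq2's size factors, DESeq2 1.42.0, limma 3.58.1 on log2(TPM + 0.5, 0.1 or 1), an effective length offset, a length trend offset, a filter of 5 counts in 3 libraries, all genes unfiltered, the replicate number as a block, the covariate, the 4 libraries without MO2 and MC3, each library left out, and thresholds of 0.05 and 0.01. Members, lists and tests were chosen with earlier results of these data known. Named were all chains at 1 TPM or more, chains from 0.1 TPM by counts, chains past the threshold in either fit and Col1a1, Col1a2, Col3a1, Col4a1, Col4a2, Col5a1 and Col6a1 with full statistics, and pathway genes past the threshold or among the 10 of largest change with the covariate. Gly-X-Y runs were counted in the transcript with a coding sequence that held the most counts (the longest where none had any), as triplets of codons that begin with a glycine codon. Sleuth was not used here. Endothelial, epithelial, osteoblast, adipocyte and muscle marker lists were also computed.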

Additional observations from a re-analysis of the deposited data

How the results depend on the processing

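The count of collagen chain genes past the threshold (1) was 7 with the covariate for MO2 and MC3, 2 without a filter, 0 with the effective length offset, 0 with limma at each pseudocount (0.5, 0.1 and 1), and 0 at thresholds of 0.05 and 0.01. It ranged from 0 to 1 on leaving out single libraries, with 0 when any of MO1, MO2 or MO3 was left out, as it was for all genes. The count of pathway genes (4) was 16 (13 higher, 3 lower) with the covariate, 10 without MO2 and MC3, 7 with DESeq2, 2 with the effective length offset, with the filter of 5 counts in 3 libraries and without a filter, 1 with limma at each pseudocount, 0 at 0.05 and 0.01, and 0 to 2 on leaving out single libraries. The count over all genes (579) was 3999 with the covariate, 1702 without MO2 and MC3, 1278 with DESeq2, 356 with limma at 0.5 and 224 at 1, 2 at 0.05 and 0 at 0.01, and ranged from 0 to 549 on leaving out single libraries. The summed TPM ratio (1.17) ranged from 0.983 (without MC3) to 1.56 (without MO2).

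With replicate numbers as a block, the counts were 1 collagen chain gene, 0 pathway genes and 444 of all genes. Deviations of same-numbered libraries from their group means correlated at 0.53, -0.29 and -0.52. The split of MO2 and MC3 enters these values, so they cannot decide whether the numbers pair the libraries. The number was not used in the main fit. P4ha1 had an adjusted p of 0.104 under the block and Plod1, Plod2 and Loxl1 of 0.383, 0.305 and 0.254 (edgeR). Col4a1 changed direction under the block (0.01), with the covariate (0.01) and without MO2 and MC3 (0.16), Col4a2 without MO2 and MC3 (0.12), and Col11a2 with the effective length offset (-0.08). On leaving out single libraries the log2 fold change changed direction for Col1a2 (-0.39 to 0.24), Col3a1 (-0.13 to 0.24), Col4a1 (-0.24 to 0.33), Col4a2 (-0.21 to 0.27), Col5a1 (-0.21 to 0.72), Col5a3 (-0.03 to 0.71), Col6a3 (-0.06 to 0.46), Col8a1 (-0.00 to 0.56), Col11a2 (-2.27 to 3.13), Col12a1 (-0.17 to 0.49), Col16a1 (-0.29 to 0.99) and Col26a1 (-1.26 to 4.66). Without a change of direction it moved by over 1.5 times for Col1a1 (0.02 to 0.58), Col5a2 (-0.50 to -0.10), Col6a2 (0.36 to 0.76), Col7a1 (-1.08 to -0.29), Col10a1 (0.28 to 1.2), Col18a1 (-0.40 to -0.07), Bmp1 (0.15 to 1.03) and P3h3 (0.43 to 0.97). Col4a5 stayed between 3.52 and 3.99. The cause of these changes was not tested.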

Other observations

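Marker lists of cell types other than stroma and blood gave the following levels. The summed TPM of 5 endothelial markers was 0.656 to 1.01 in MS-5 only and 1.29 to 4.21 in co-culture, and that of 5 epithelial markers was 0.279 to 0.530 and then 1.12 to 4.24. Both were highest in MC2, and none of their tested members passed edgeR's test in either fit. The 7 chondrocyte markers summed to 0.268 to 1.65 TPM over all libraries. The 8 osteoblast markers summed to 2016 to 5614 TPM, nearly all of it Spp1 (1980 to 5550 TPM), with Ibsp at 0 in every library. Sp7, an osteoblast transcription factor, was not tested: its counts were 5, 10 and 2 in MO1, MO2 and MO3, against 5, 21 and 7 in MC1, MC2 and MC3, and the groups overlapped in CPM. The 5 adipocyte markers summed to 390 to 1160 TPM, of which Lpl held the most, and 1 of the 5 was lower with the covariate, where 16.4% of all genes were lower. The 5 smooth and skeletal muscle markers summed to 37.0 to 60.3 TPM, nearly all of it Des.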
